A study of Mus musculus with 768 samples.

Results

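Complement is the blood-borne defence cascade of proteases and membrane proteins. The genes described here are 8 members of it, chosen by symbol: the initiating proteases C1s1 and C1ra, the components C4b, C3 and Cfb, and the regulators Serping1, Cd55 and Cd59a. All 8 were found among the 51734 features of the deposited count tables. They were followed in single endothelial cells of high endothelial venules (HEVs), the vessels through which lymphocytes enter lymph nodes, and of tumour vessels. The antibody MECA-79 marks HEV cells by the sulfated glycans on their surface.

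In the classical pathway, C1q bound to antibody or to a damaged surface activates the protease C1r, which activates C1s, and C1s then cleaves C4 and C2. All pathways meet at C3, whose cleaved form marks a surface for uptake, and factor B (the product of Cfb) binds that form to build the convertase of the alternative pathway. Serping1 encodes C1 inhibitor, which blocks C1r and C1s. Cd55 (decay-accelerating factor) takes convertases apart and Cd59a blocks the membrane attack complex, both on the cell's own surface. Most complement in plasma comes from the liver, and endothelial cells, fibroblasts and macrophages are also known to make components.

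Cells were sorted as CD45- CD31+ into 8 plates of 96 wells after beads had removed CD45-positive and EpCAM-positive cells. TU_HEV cells were MECA79+ cells from PyMT tumours (plates pool3 and pool4), LN_HEV cells were MECA79+ cells from lymph node (pool1 and pool2), and TU_EC cells were MECA79- cells from PyMT tumours (poolA, poolB, poolC and poolD). PyMT is a viral oncogene used to drive mouse mammary tumours. The labels used here give no treatment, strain, age or animal, so each group counts as 1 sample, plates show only the spread between plates, and no test or p-value was possible. The Smart-seq2 method used reads along the whole transcript and counts reads, with no molecular identifiers. Plates pool1 to pool4 came in 1 file and series of library numbers and poolA to poolD in another, so a difference between TU_EC and the other groups cannot be told apart from a difference between these library sets.

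The cells kept per plate were 50 and 48 of TU_HEV, 62 and 79 of LN_HEV, and 68, 81, 82 and 72 of TU_EC. Their counts summed to 146215450, 142357765 and 221773977 in that order of groups, with medians of 1431389, 1056419 and 625611 counts per cell. Levels are in CPM, the summed counts of a group or plate scaled by their total. Intervals are exact at 95%. They hold the error of counting reads alone. PCR copies of a molecule are not independent reads, so the intervals are too narrow even for that error. The endothelial genes Eng, Egfl7, Tie1, Cdh5 and Pecam1 summed to 6765 CPM in TU_HEV, 5380 CPM in LN_HEV and 5804 CPM in TU_EC, and by the filter each kept cell had at least 2 of them at 10 CPM.

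Promoters are shown for C1s1 and Cd55, which followed the same order of groups, and for Cd59a, which did not. They are the 250 bases before the RefSeq start on build GRCm38.p6, 5′ to 3′ on the gene's strand, with motif matches in capitals.
C1s1, chr6:124542360-124542609, minus strand: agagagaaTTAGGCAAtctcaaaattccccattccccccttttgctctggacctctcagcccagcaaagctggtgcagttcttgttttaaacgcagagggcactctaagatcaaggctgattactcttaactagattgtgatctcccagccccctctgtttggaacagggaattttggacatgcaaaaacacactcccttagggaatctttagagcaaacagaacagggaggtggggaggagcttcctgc
Cd55, chr1:130462745-130462994, minus strand: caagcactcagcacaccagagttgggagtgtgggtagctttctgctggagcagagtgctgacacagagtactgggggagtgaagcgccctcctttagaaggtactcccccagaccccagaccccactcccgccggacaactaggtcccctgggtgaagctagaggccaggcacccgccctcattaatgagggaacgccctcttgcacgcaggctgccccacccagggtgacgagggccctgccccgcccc
Cd59a, chr2:104095551-104095800, plus strand: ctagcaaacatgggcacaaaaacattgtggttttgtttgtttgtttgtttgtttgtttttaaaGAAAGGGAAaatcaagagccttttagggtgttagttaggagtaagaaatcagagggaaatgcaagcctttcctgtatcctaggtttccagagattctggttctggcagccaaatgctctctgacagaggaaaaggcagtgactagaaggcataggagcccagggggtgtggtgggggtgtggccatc
The letters searched on both strands were TTCNNNGAA (GAS), GAAANNGAA (part of ISRE), GGGNNTTTC (part of the NF-kB site), TGANTCA (AP-1) and TTGCNNAA (C/EBP), and among all 32851 promoters of that length 7.02%, 7.13%, 3.72%, 6.75% and 9.56% held them. The capitals in the C1s1 promoter are a C/EBP match on the opposite strand, near the far end of the window, and those in the Cd59a promoter are a match to the ISRE letters on the strand shown. The Cd55 promoter held none of these strings. RefSeq gives C1s1 a further start on the same strand, and the window before it (chr6:124542322-124542571) held none of them either. A match is a string of letters and not a measured binding site. RefSeq promoters matched 5 of the 8 symbols, and C4b, Cfb and Serping1 are named only.

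Some libraries hold the counts of others. In pool1, 11 libraries held, gene by gene, at least 99.8% of the counts of 19 TU_HEV libraries, 16 of them among the kept cells. In every such pair the library number of the TU_HEV library begins with that of its holder. These 11 libraries were left out of LN_HEV. A further 2 kept LN_HEV libraries of pool1 each held a TU_HEV library that did not pass the filters. No ratio of C1s1, C1ra, Cfb, Cd55 or Cd59a moved by over 1.5 times with the 11 libraries put back or with the other 2 also left out.

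Markers of other cells that make complement were low in the kept cells. The cell filter removed cells with 3 or more of 6 genes at 10 CPM in a leukocyte or a mural and fibroblast list. Low sums of leukocyte, mural and fibroblast markers are thus partly set by the filter. The 6 fibroblast markers summed to 0.80 CPM in TU_HEV, 0.049 CPM in LN_HEV and 0.73 CPM in TU_EC, with 4, 5 and 2 of the 6 at 0, and their sums per plate lay between 0 and 2.54 CPM. The 6 macrophage markers summed to 9.82, 5.87 and 3.35 CPM in that order (plates 8.71 to 11.2, 0.79 to 9.37 and 1.26 to 4.49 CPM), with 4, 3 and 2 at 0. The 6 mural markers summed to 1.39, 6.33 and 9.66 CPM, and the 6 leukocyte markers to 3.38, 9.84 and 3.52 CPM. The 6 lymphatic markers summed to 34.3 CPM in TU_HEV, 17.5 CPM in LN_HEV and 500 CPM in TU_EC, with 2, 2 and 0 of the 6 at 0. Their part in the results was not tested beyond leaving out cells, as given beside the genes it touched.

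In the HEV groups the 8 genes fell into an abundant and a nearly silent set. C1s1, C1ra, Cfb, Cd55 and Cd59a had counts in at least 29 cells of each HEV group, and C3, C4b and Serping1 in at most 10. The split did not hold in TU_EC, where C1s1 had counts in 11 cells (5.22 CPM) and Serping1 in 13 (13.8 CPM). The ratios of C3, C4b and Serping1 rest on few cells. The first 4 of the abundant genes had their highest level in LN_HEV, the next in TU_HEV and the lowest in TU_EC, and Cd59a was highest in TU_HEV.

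**Figure D1:**
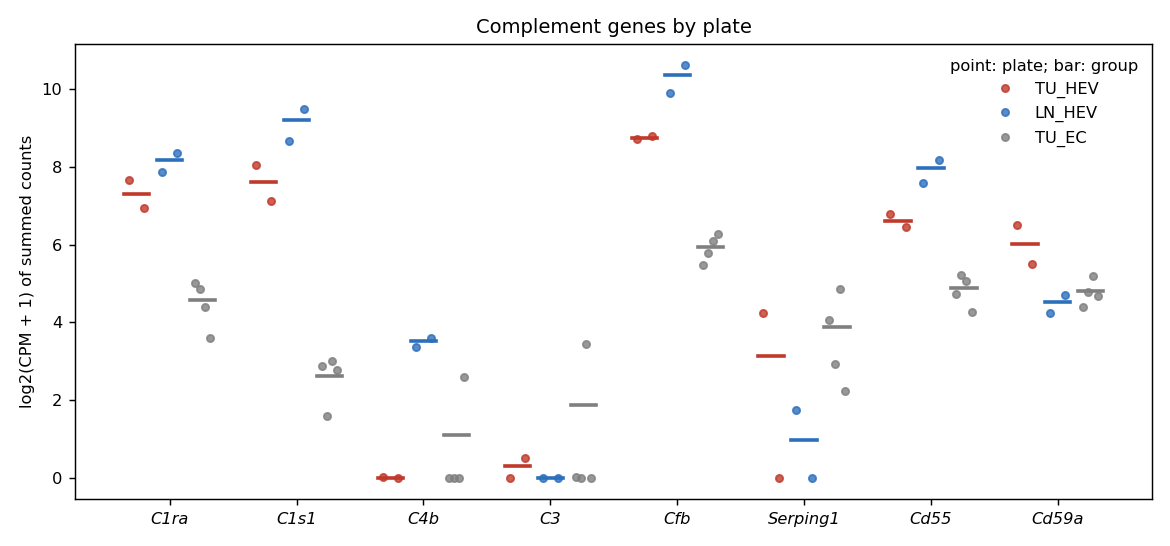
Level of each gene as log2(CPM + 1) of summed counts, 1 point per plate and a bar for the group (TU_HEV, LN_HEV, TU_EC from left to right within each gene). The points of C1ra, C1s1, Cfb and Cd55 do not overlap between groups and are highest in LN_HEV. Those of Cd59a are highest in TU_HEV, and C3, C4b and Serping1 have plates at 0 CPM. The share of all genes whose plates do not overlap is not given, so this is a description of the points only.

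Of the 8 genes, 3 were at least 2-fold higher in TU_HEV than in LN_HEV (C3, Serping1 and Cd59a) and 4 were at least 2-fold lower (C1s1, C4b, Cfb and Cd55), where 20.8% of 8651 background genes were higher and 6.51% lower. The background holds the genes with a mean of at least 10 CPM over the groups, and 5 of the 8 pass it (C3, C4b and Serping1 do not). Without that filter 29.4% of 20219 genes were at least 2-fold higher and 21.3% at least 2-fold lower. The median log2 ratio of the 8 was -1.11, beside 0.30 over the background. Both C4b and Cfb were at least 2-fold lower in each of the 4 pairs of plates. This held for 2.68% of the background and, without the filter that C4b does not pass, for 6.13% of genes. For C4b it rests on 1 TU_HEV count in pool3 and 0 in pool4, where 3 counts stood in for 0. None of the 8 was at least 2-fold higher in each pair, which held for 10.8% of the background and 9.13% of genes without the filter.

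Against TU_EC, 5 of the 8 were at least 2-fold higher in TU_HEV (C1s1, C1ra, Cfb, Cd55 and Cd59a) and 2 at least 2-fold lower (C3 and C4b), against 18.7% and 5.13% of 8636 background genes. C3 and C4b do not pass the filter, and without it 26.9% of 21580 genes were higher and 22.8% lower, close to the 2 of 8 that were lower here. The median log2 ratio was 1.499, beside 0.39 over the background. In all 8 pairs of plates C1s1, C1ra, Cfb and Cd55 were at least 2-fold higher, which held for 5.64% of the background. None of the 8 genes was at least 2-fold lower in all pairs, which held for 1.7% of the background and 2.34% of genes without the filter. Without poolC, or without the cells with 2 lymphatic markers at 10 CPM (2, 1 and 13 cells of TU_HEV, LN_HEV and TU_EC), C3 turned and 1 gene was at least 2-fold lower.

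LN_HEV stood above TU_EC by at least 2-fold in 5 of the 8 genes (C1s1, C1ra, C4b, Cfb and Cd55) and below it in 2 (C3 and Serping1), against 14.8% and 14.3% of 8653 background genes, and 24.5% and 27.7% of 21916 genes without the filter. The median log2 ratio was 3.14, beside 0.12 over the background. C1s1, C1ra, Cfb and Cd55 were at least 2-fold higher in all 8 pairs of plates, which held for 5.25% of the background. None of the 8 genes was at least 2-fold lower in all of them, which held for 7.62% of the background and 5.68% of genes without the filter. Without poolC the count of genes below TU_EC was 1. The 3 comparisons share groups, so their counts are not independent of each other.

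**Figure D2:**
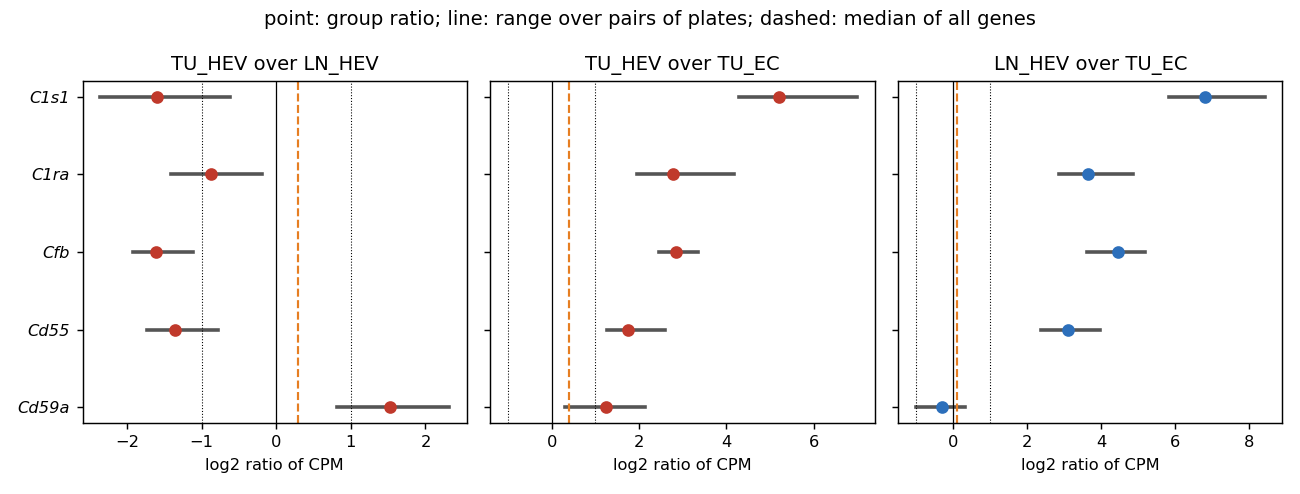
Log2 ratio of CPM for the 5 abundant genes in each comparison: the point is the ratio of the groups, the line its range over pairs of plates, dotted lines mark 2-fold and the dashed line the median of the background genes. C1s1, C1ra, Cfb and Cd55 lie left of 0 for TU_HEV over LN_HEV and right of the 2-fold line for TU_HEV over TU_EC and LN_HEV over TU_EC, and Cd59a lies right of 0 for TU_HEV over LN_HEV.

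C1s1 encodes the protease C1s, the last enzyme of the C1 complex, and lies on chromosome 6 (124530345 to 124542359, minus strand, GRCm38). It reached 260.8 CPM in pool3 and 137.9 CPM in pool4 of TU_HEV, 400.1 CPM in pool1 and 709 CPM in pool2 of LN_HEV, and 6.31, 2.05, 7.02 and 5.85 CPM in poolA to poolD of TU_EC. No plate of a group overlapped those of another. For this gene and those below, the share of all genes without such overlap is not given, and with few plates it may be common. C1s1 was 3.03-fold lower in TU_HEV than in LN_HEV (interval 2.99 to 3.07), past 2-fold in 3 of 4 pairs of plates. It was 36.8-fold higher in TU_HEV than in TU_EC (34.7 to 39.1) and 111.6-fold higher in LN_HEV than in TU_EC (105.3 to 118.4).

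C1ra encodes C1r, the protease that activates C1s, and lies beside C1s1 on chromosome 6 (124512405 to 124523443, plus strand). Its level was 200.6 and 121.5 CPM in the TU_HEV plates, 229.9 and 323.5 CPM in the LN_HEV plates, and 31.3, 27.8, 20.01 and 11.1 CPM in the TU_EC plates. The groups did not overlap, but pool3 of TU_HEV and pool1 of LN_HEV stood close together. C1ra was 1.82-fold lower in TU_HEV than in LN_HEV (1.79 to 1.85), short of 2-fold, and past it in 1 of 4 pairs of plates. It was 6.89-fold higher in TU_HEV than in TU_EC (6.68 to 7.11) and 12.6-fold higher in LN_HEV than in TU_EC (12.2 to 12.9).

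Mice carry near copies of these proteases next to them. C1s2 shares 14.7% of the 75-base windows of the C1s1 transcript, and C1rb shares 40.1% of those of C1ra, so reads from such windows may be counted to either gene or dropped, and how they were assigned is not given in the sources used here. C1s2 stood at 18.3 CPM in TU_HEV, 52.9 CPM in LN_HEV and 0.39 CPM in TU_EC, and C1rb at 15.2, 23.2 and 1.61 CPM in that order. The copies had the same order of groups as C1s1 and C1ra at lower counts. An antisense gene, Gm16567, overlaps 18.4% of the C1s1 exon bases and stood at 1.68 CPM in TU_HEV, 3.96 CPM in LN_HEV and 0.095 CPM in TU_EC, and without strand its reads cannot be told apart from those of C1s1.

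C4b, the component that C1s cleaves, had 1 count in TU_HEV (1 cell), 1485 counts in LN_HEV (10 cells, 4 in pool1 and 6 in pool2) and counts of 1 cell of poolD in TU_EC. In CPM this was 0.0068 in TU_HEV, 10.4 in LN_HEV and 1.15 in TU_EC. Both LN_HEV plates held counts, 9.36 CPM in pool1 and 11.2 CPM in pool2. C4b was 1525-fold lower in TU_HEV than in LN_HEV, with an interval of 273.3 to 60284 that is wide because it rests on 1 count. It was 168.8-fold lower in TU_HEV than in TU_EC (30.02 to 6692) and 9.04-fold higher in LN_HEV than in TU_EC (7.91 to 10.4), the TU_EC value being a single cell. The copy C4a, which shares 23.5% of the windows of C4b, had 0.14, 1.08 and 0.65 CPM in TU_HEV, LN_HEV and TU_EC.

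C3, on which all pathways converge, was nearly absent from the kept cells. It had 36 counts in 1 TU_HEV cell, 0 counts in LN_HEV and 595 counts in 4 TU_EC cells, of which 594 counts lay in 3 cells of poolC. A count in none of the LN_HEV cells allows a share of up to 2.13% with a count by the rule of 3 cells, and of 2.58% by the exact interval. Against the floor of 3 counts over the group, C3 was 11.7-fold higher in TU_HEV than in LN_HEV and 127.3-fold lower in LN_HEV than in TU_EC. The exact intervals of these start at 9.02 and 103.2 and have no upper end. C3 had counts in both tumour groups. It was 10.9-fold lower in TU_HEV than in TU_EC (7.78 to 15.7), but at log2 5.32 higher without poolC and at log2 0.44 higher without the cells with 2 lymphatic markers.

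Cfb encodes factor B and lies on chromosome 17 (34856374 to 34862518, minus strand). It stood at 417 and 438 CPM in the TU_HEV plates, 945 and 1571 CPM in the LN_HEV plates, and 43.1, 53.8, 66.8 and 76.1 CPM in the TU_EC plates. The TU_HEV plates lay close together and no group overlapped another. Cfb was 3.07-fold lower in TU_HEV than in LN_HEV (3.04 to 3.10). It was 7.15-fold higher in TU_HEV than in TU_EC (7.02 to 7.29) and 21.9-fold higher in LN_HEV than in TU_EC (21.6 to 22.3). The annotated readthrough gene Gm20547 shares 79.5% of the Cfb exon bases on the same strand and had 2.59, 4.52 and 1.17 CPM in TU_HEV, LN_HEV and TU_EC, against 428.9, 1316 and 60.0 CPM for Cfb. C2, the neighbour that serves the classical pathway as Cfb serves the alternative one, had 11.9, 9.64 and 7.17 CPM in that order and reached 2-fold in none of the 3 ratios of groups.

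Serping1, which encodes the inhibitor of C1r and C1s, had counts in 2 TU_HEV cells, 1 LN_HEV cell and 13 TU_EC cells. Its level was 17.8 CPM in pool3 and 0 CPM in pool4 of TU_HEV, 2.39 CPM in pool1 and 0 CPM in pool2 of LN_HEV, and 15.8, 6.68, 28.0 and 3.68 CPM in the TU_EC plates. Only the TU_EC plates all held counts. Over the groups it was 8.06-fold higher in TU_HEV than in LN_HEV (6.75 to 9.68), a direction that turned to log2 -4.73 without pool3. It was 1.75-fold lower in TU_HEV than in TU_EC (1.64 to 1.88) and 14.1-fold lower in LN_HEV than in TU_EC (11.9 to 16.9).

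Serping1 in every group, and C3 and C4b in LN_HEV, stood higher in the 16 cells that the endothelial rule left out. Serping1 stood at 2355 CPM in the 3 left-out TU_HEV cells, 148.7 CPM in the 7 of LN_HEV and 889 CPM in the 6 of TU_EC. In that order, mural markers summed to 3442, 52.2 and 5585 CPM and fibroblast markers to 416, 332.2 and 3901 CPM. Leukocyte markers summed to 277.5, 904.3 and 23.7 CPM, with counts in 6 of the 7 left-out LN_HEV cells. C3 had 3927 counts and C4b 1352 counts in the left-out LN_HEV cells, each gene in 1 cell. Some abundant genes also stood higher in the left-out cells. C1s1 had 730 CPM in those of LN_HEV and 26.4 CPM in those of TU_EC, C1ra had 50.7 CPM in those of TU_EC, and Cfb had 1808 CPM in those of LN_HEV. With those cells included, the log2 ratio of C3 was -6.79 for TU_HEV over LN_HEV and 3.32 for LN_HEV over TU_EC, both turned from the values above, and Serping1 was 2.52-fold higher in TU_HEV than in TU_EC.

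Cd55, the surface regulator that takes convertases apart, lies on chromosome 1 (130439027 to 130462744, minus strand). It measured 110.2 and 86.9 CPM in the TU_HEV plates, 189.98 and 288.2 CPM in the LN_HEV plates, and 25.7, 36.2, 32.5 and 18.2 CPM in the TU_EC plates. Here too the plates of the groups did not overlap. Cd55 was 2.55-fold lower in TU_HEV than in LN_HEV (2.50 to 2.60), past 2-fold in 3 of 4 pairs of plates, and 1.96-fold lower without pool2. It was 3.39-fold higher in TU_HEV than in TU_EC (3.29 to 3.49) and 8.64-fold higher in LN_HEV than in TU_EC (8.42 to 8.88). Its copy Cd55b had at most 19 counts in any group.

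Cd59a, the surface inhibitor of the membrane attack complex, lies on chromosome 2 (104095801 to 104115354, plus strand). It had 88.8 and 44.5 CPM in the TU_HEV plates, 17.8 and 25.2 CPM in the LN_HEV plates, and 20.1, 26.5, 35.8 and 24.7 CPM in the TU_EC plates. Both TU_HEV plates lay above all others, and LN_HEV and TU_EC overlapped. Cd59a was 2.89-fold higher in TU_HEV than in LN_HEV (2.77 to 3.01), past 2-fold in 3 of 4 pairs. It was 2.36-fold higher in TU_HEV than in TU_EC (2.28 to 2.44), past 2-fold in 5 of 8 pairs, but 1.75-fold higher with median-of-ratios size factors, 1.92-fold higher with totals that leave out ribosomal RNA and mitochondrial genes, and 1.64-fold higher without pool3. LN_HEV was 1.22-fold below TU_EC (1.17 to 1.28). The copy Cd59b, at 4.84, 0.91 and 1.47 CPM in TU_HEV, LN_HEV and TU_EC, was also highest in TU_HEV.

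Per kilobase of exon the order of the genes differed between the groups. In TU_HEV the levels were 151.8 CPM per kilobase for Cfb, 61.4 for C1s1, 52.5 for C1ra, 35.4 for Cd59a and 20.02 for Cd55. In LN_HEV they were 466 CPM per kilobase for Cfb, 186.2 for C1s1, 95.7 for C1ra, 51.1 for Cd55 and 12.2 for Cd59a. In TU_EC they were 21.2 CPM per kilobase for Cfb, 15.0 for Cd59a, 7.61 for C1ra, 5.91 for Cd55 and 1.67 for C1s1. Cfb led in each group, and C1s1 was second in both HEV groups and last of the 5 in TU_EC. The lengths hold all exon bases. For Cd55 these are 4853 bases, against 3133 in its longest transcript, so its place in the order also depends on the length used. Of the 75-base windows, 42.4% of C1ra, 14.7% of C1s1 and 81.2% of Cfb occur in another gene. The order may depend on how reads from such windows were counted, which was not tested.

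A smaller share of TU_HEV than LN_HEV cells had a count of C1s1, C1ra, Cfb and Cd55. After thinning each cell to 100000 counts, which 98 TU_HEV, 140 LN_HEV and 300 TU_EC cells reached, C1s1 had a count in 37.8% of TU_HEV cells (interval 28.2 to 48.1), 95.0% of LN_HEV cells (90.0 to 97.97) and 2.67% of TU_EC cells (1.16 to 5.19). For Cfb the shares were 64.3%, 95.0% and 18.0%, for C1ra 48.0%, 80.7% and 9.00%, and for Cd55 31.6%, 75.0% and 11.7%, in that order of groups. For Cd59a they were 35.7%, 19.3% and 22.0%. Without thinning the C1s1 shares were 40.8%, 95.7% and 3.63% and the Cfb shares 71.4%, 95.0% and 19.1%.

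Among cells with a count, taken here without thinning, the levels differed less for some genes than for others. Without thinning, C1ra had a count in 56.0% and 43.8% of cells in pool3 and pool4 of TU_HEV. In pool1 and pool2 of LN_HEV the shares were 87.1% and 78.5%. The median of such cells was 267.7 CPM in TU_HEV, 277.9 CPM in LN_HEV and 126.8 CPM in TU_EC for C1ra, and 179.04, 238.8 and 122.995 CPM for Cd55. For Cfb it was 357.3 CPM in TU_HEV, 1195 CPM in LN_HEV and 217.7 CPM in TU_EC, and for C1s1 271.5, 520.1 and 143.5 CPM. The C1ra medians of the HEV groups lay close, so for C1ra the HEV groups differed more in the share of cells with a count than in the level of those cells, while for Cfb they differed in both. In the 5 cells with the most, TU_HEV held 45.4% of its C1s1 counts, against 11.8% in LN_HEV and 86.6% in TU_EC.

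**Figure D3:**
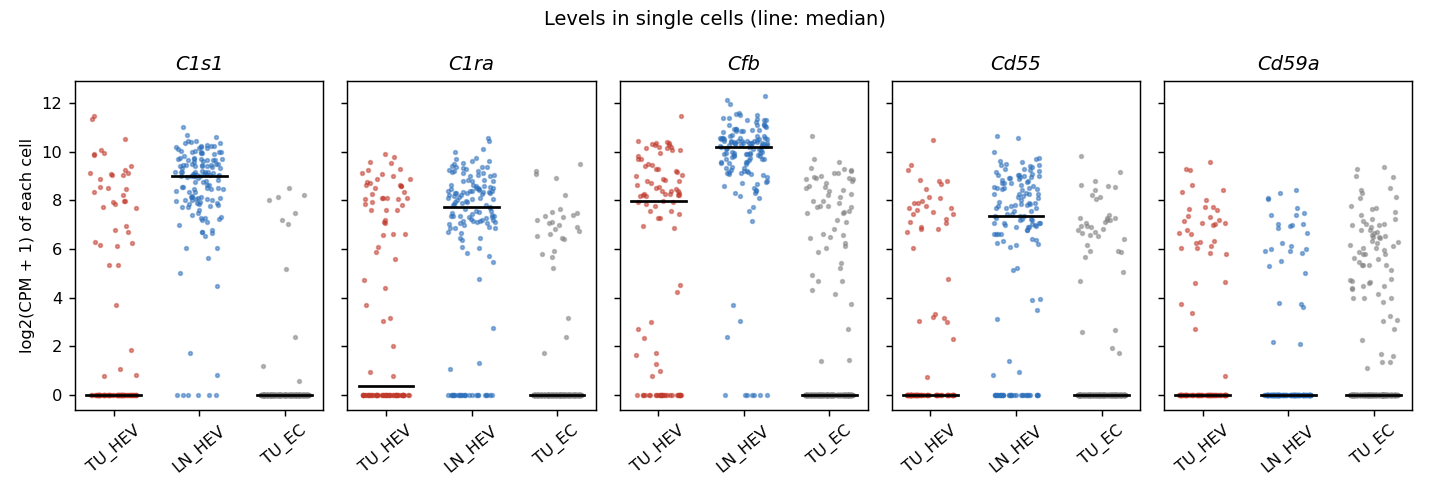
Level of 5 genes in each kept cell as log2(CPM + 1), with a line at the median of the group. TU_HEV cells split between 0 and levels above 0 for C1s1, C1ra and Cd55, nearly all LN_HEV cells lie above 0 for C1s1 and Cfb, and most TU_EC cells lie at 0.

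The number of the genes C1s1, C1ra, Cfb and Cd55 found in a cell differed between the groups. After thinning, 18 of 98 TU_HEV cells, 83 of 140 LN_HEV cells and 1 of 300 TU_EC cells had a count of all 4. None of the 4 was found in 27 TU_HEV cells, 1 LN_HEV cell and 210 TU_EC cells. TU_HEV cells were spread over all classes, with 17, 19 and 17 cells holding 1, 2 and 3 of the genes. Of the 37 TU_HEV cells with C1s1, 32 (86.5%) also had C1ra, which had a count in 47.

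**Figure D4:**
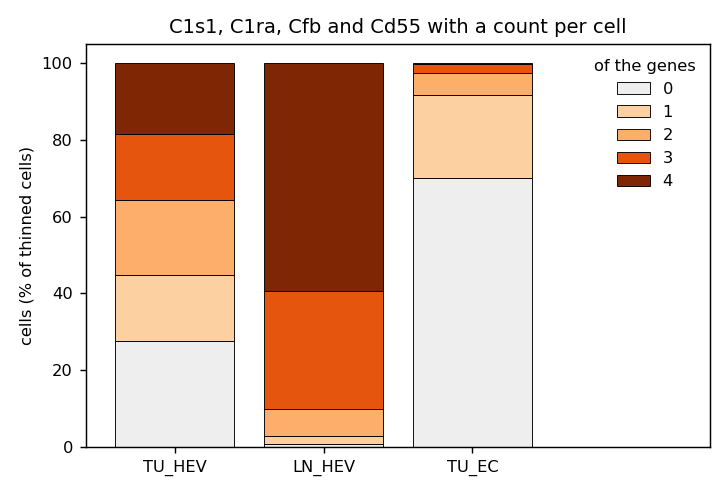
Share of thinned cells with a count of 0, 1, 2, 3 or 4 of the genes C1s1, C1ra, Cfb and Cd55, as stacked bars from 0 to 100% for TU_HEV, LN_HEV and TU_EC. The darkest class (all 4 genes) holds 18.4% of TU_HEV cells, 59.3% of LN_HEV cells and 0.333% of TU_EC cells.

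Within TU_HEV the genes varied together from cell to cell. Over 98 cells, which share 2 plates, thinned counts as log2(CPM + 10) gave a Spearman rho of 0.63 between C1s1 and C1ra (0.48 and 0.71 within the plates), 0.39 between C1s1 and Cfb (0.29 and 0.61) and 0.42 between C1ra and Cfb. Over 140 LN_HEV cells the same pairs gave 0.12, 0.20 and 0.14, and between 0.030 and 0.12 within the plates. Over 300 TU_EC cells they gave 0.24, 0.21 and 0.31, with a C1s1 count in only 8 cells. For C1ra and Cfb the TU_EC plates lay between 0.26 and 0.43, so that pair varied together there too. Cd59a gave at most 0.27 with another of the abundant genes in TU_HEV. These coefficients are descriptions of sparse counts, in which cells with more genes detected tend to have higher values: rho with the number of genes detected was 0.28 for C1s1, 0.20 for C1ra, 0.41 for Cfb and 0.38 for Cd55 in TU_HEV.

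C1ra and C1s1 also varied with venous endothelial genes in TU_HEV. With the summed level of 8 venous genes (Ackr1, Selp, Sele, Vcam1, Vwf, Nr2f2, Lrg1 and Icam1), rho was 0.74 for C1ra (0.65 and 0.75 within the plates), 0.61 for C1s1 (0.55 and 0.63), 0.49 for Cfb, 0.35 for Cd59a and 0.30 for Cd55. Among 3249 genes with a count in at least 30% of TU_HEV cells, none had a higher rho with that list than C1ra, 10 were higher than C1s1 and 32 than Cfb, with a median of 0.078. In LN_HEV the venous list gave 0.26 for C1ra (0.16 and 0.30 within the plates), 0.31 for C1s1 (0.19 and 0.20) and 0.31 for Cfb. In TU_EC the venous list gave 0.27 for C1ra, 0.23 for C1s1 and 0.42 for Cfb (0.25 to 0.53 within the plates). That list summed to 12127 CPM in TU_HEV, 5309 CPM in LN_HEV and 1491 CPM in TU_EC.

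Other lists gave weaker coefficients. The high endothelial list (Glycam1, Chst4, Fut7, Enpp2, Gcnt1 and St3gal6, genes of the MECA-79 glycans and of HEV identity) gave 0.43 for Cfb, 0.41 for C1ra and 0.25 for C1s1 in TU_HEV. A list of 14 interferon-stimulated genes gave between -0.012 (Cd55) and 0.26 (C1ra, with 0.066 and 0.42 within the plates) in TU_HEV. That list summed to 5672 CPM in TU_HEV, 748 CPM in LN_HEV and 2314 CPM in TU_EC. For tip cell genes, markers of sprouting endothelium, all 5 genes were between -0.26 and -0.11 in TU_HEV.

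**Figure D5:**
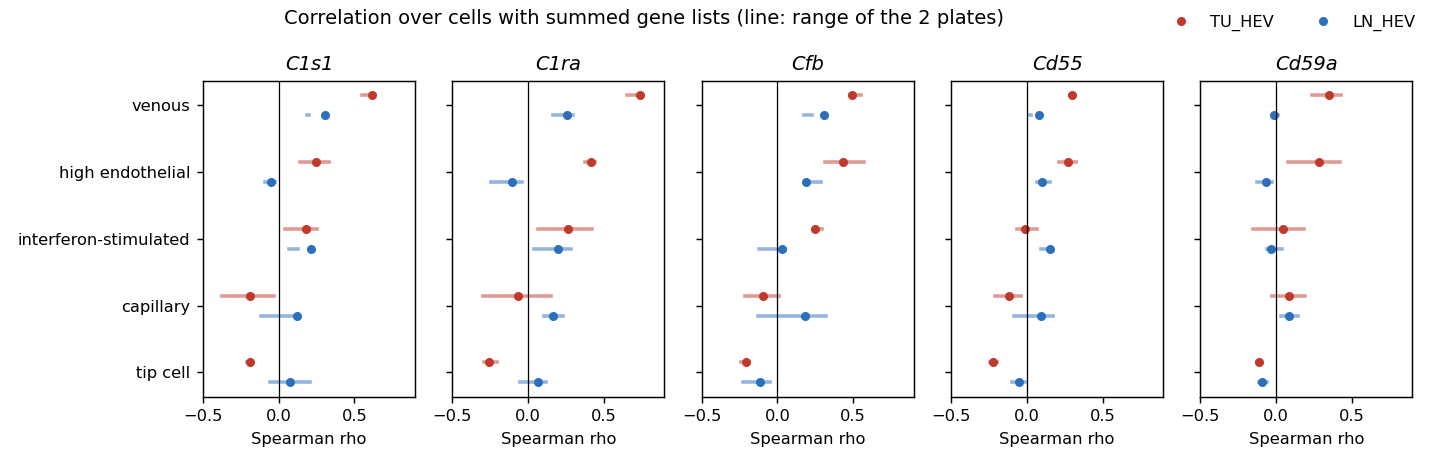
Spearman rho over cells of each gene with the summed level of 5 gene lists in TU_HEV (98 cells) and LN_HEV (140 cells), with a line for the range of the 2 plates, outside which a pooled value can fall. The venous list stands farthest right in TU_HEV for C1s1 and C1ra, at 0.61 and 0.74, against 0.31 and 0.26 in LN_HEV.

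The genes most like each member were taken over the cells of the group where it was highest. For C1s1 in LN_HEV they included C1s2 (rho 0.73) and Egfl7 (0.38), and for C1ra they were C1rb (0.67), Dab2 (0.31) and Susd2 (0.30), so the near copies led. The plates differed for the others, with 0.17 and 0.34 for Egfl7 and 0.16 and 0.39 for Dab2. For Cfb in LN_HEV they were Ubd (0.49), Slc25a5 (0.40) and Serpina1a (0.40), the last from a family of near-identical genes. For Cd55 in LN_HEV they were Birc6 (0.33), Iqgap1 (0.30) and Dpysl2 (0.30), and for Cd59a in TU_HEV Ctsd (0.43), Ackr1 (0.42) and Chst4 (0.41). The medians over all genes compared were between 0.024 and 0.084. C3, C4b and Serping1 had counts in too few cells for such a ranking.

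The other 50 complement genes listed were mostly silent in these cells, with 30 at 0 in TU_HEV, 24 in LN_HEV and 24 in TU_EC. In TU_HEV against LN_HEV 6 were at least 2-fold higher and 16 at least 2-fold lower, in TU_HEV against TU_EC 11 and 8, and in LN_HEV against TU_EC 15 and 7. Genes with at most 3 counts in both groups have no ratio, which left 27, 24 and 29 of the 50 in that order. Most of the 50 lie below the filter. Without it, the shares of all genes with a ratio that were higher and lower were 29.4% and 21.3%, 26.9% and 22.8%, and 24.5% and 27.7%. The median log2 ratios over the genes with counts above the floor were -1.91, 0.81 and 1.05 in that order. Of the 17 genes of classical and lectin initiation 2 were higher and 5 lower in TU_HEV than in LN_HEV, of the 9 of the alternative and terminal steps 0 and 3, of the 7 soluble regulators 0 and 1, of the 7 membrane regulators 2 and 3, and of the 10 receptors 2 and 4. The genes with a ratio numbered 9, 3, 1, 7 and 7 in that order of lists. The C1q chains, which the C1 proteases need, had no count in either HEV group, and C1qa and C1qc had 55 and 68 counts in TU_EC, each in 1 cell. The list has 10 genes in the background.

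Clu, the soluble inhibitor of the terminal complex clusterin, was the most abundant of them in CPM in both HEV groups. It had 649 and 1635 CPM in the TU_HEV plates, 29672 and 37364 CPM in the LN_HEV plates, and 140.3 to 251.95 CPM in the TU_EC plates. No group overlapped another. Clu was 28.5-fold lower in TU_HEV than in LN_HEV and 6.04-fold higher in TU_HEV than in TU_EC.

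Further genes differed in every pair of plates of a comparison. Masp1, a protease of the lectin pathway, had 18.0 and 44.2 CPM in the TU_HEV plates, 0 counts in LN_HEV and between 0.97 and 8.67 CPM in the TU_EC plates. Against the floor of 3 counts, Masp1 was 1548-fold higher in TU_HEV than in LN_HEV, with an exact interval that starts at 1258.7. It was 6.88-fold higher in TU_HEV than in TU_EC. C1rl, a relative of C1r, was 4.12-fold lower in TU_HEV than in LN_HEV (7.23 against 29.8 CPM), and Colec12, a scavenger receptor with a collectin domain, 18.1-fold lower (2.68 against 48.4 CPM). Cd93, a receptor of endothelial cells first described as binding C1q, was 3.12-fold higher in TU_HEV than in LN_HEV (533 against 170.5 CPM) and stood at 470.2 CPM in TU_EC.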

How the data were processed

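Single-cell Smart-seq2 libraries (75-base single-end reads, 23 PCR cycles, per the labels) of 768 wells were used. The values the authors deposited are unnormalized read counts for each gene in each cell. The submitters' processing notes name Subread 1.4.6-p2, STAR 2.4.1b and FastQC 0.11.4 and the builds mm10 and GRCm38. What they do not state is the annotation, the strand setting and how reads shared by genes were handled, which are not given in the sources used. Of 51826 features, those with a repeated symbol were summed to 51734.

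Cells needed at least 50000 counts, 1000 genes, at most 30% of counts in 37 mitochondrial genes, 2 of 5 pan-endothelial genes at 10 CPM and fewer than 3 of 6 genes at 10 CPM in each of the leukocyte, epithelial and tumour, and mural and fibroblast lists. No doublet caller was run on these sorted wells. The 11 pool1 libraries that hold TU_HEV libraries were left out. Summed counts were scaled to CPM and compared as ratios with exact conditional binomial intervals. A gene at 0 was set to a floor of 3 counts over the group. No test was made, since no label names an animal, and a gene was called past 2-fold. The pairs of plates are descriptions. The ratio and interval were tested on simulated group sums with the error of counting alone. That test cannot show how the intervals hold for counts that vary between cells. Shares used cells thinned to 100000 counts (seed 1) with exact binomial intervals.

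The genes, lists and rules were chosen with earlier results of these data known. The text names the 8 members, near copies of them, and other complement genes with a mean of at least 10 CPM and a 2-fold difference in 1 direction over every pair of plates of a comparison. For each member it names the 3 genes of highest rho among those with a count in at least 30% of cells. For C1s1, 1 of these genes is not reported here. C2, the C1q chains and the overlapping genes were added after their values were seen. Python 3.11.15, numpy 2.4.6, scipy 1.17.1, pandas 2.3.3 and matplotlib 3.10.9 were used, with positions from GENCODE and promoters from RefSeq.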

Additional observations from a re-analysis of the deposited data

Results flagged for a closer look

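In the 4 TU_EC plates, C3 stood apart in poolC: the gap of its level to the nearest plate was 0.998 of the range of the plates, with 9.97 CPM in poolC and at most 0.0198 CPM elsewhere. C4b stood apart in poolD in the same way, at a gap of 1 of the range, with 5.04 CPM there and 0 CPM in the other plates, from 1 cell. The limit that marks such a gap is passed by chance in about 1 of 20 groups of 4 if values are normal, which these are not, and 8 genes were looked at. A gene with counts in 1 plate alone has a gap of 1 whatever its level.

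In the 11 pool1 libraries left out of LN_HEV, Cd59a stood at 59.3 CPM, against 17.8 CPM in the 62 other pool1 cells, which is 3.33-fold higher. The TU_HEV group stood at 64.1 CPM. These libraries hold the counts of TU_HEV libraries. In the same 11 libraries C1s1 was 1.47-fold, C1ra 1.402-fold, Cfb 1.26-fold and Cd55 1.47-fold lower than in the other pool1 cells.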

How the results depend on the processing

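Over 15 to 17 alternative settings per comparison, no ratio of C1s1, C1ra, Cfb, Cd55 or Cd59a moved by over 1.5 times. For TU_HEV against LN_HEV the fold lower ranged from 2.08 to 4.22 for C1s1, 1.42 to 2.35 for C1ra, 2.20 to 3.74 for Cfb and 1.96 to 3.12 for Cd55, and the fold higher of Cd59a from 2.00 to 4.01. C1ra passed 2-fold lower with size factors (2.23-fold), without pool3 (2.35-fold) and without pool1 (2.07-fold). The median log2 ratio of the 8 genes for TU_HEV over TU_EC was 1.07 with size factors and 1.95 without the top cell of each gene, and for LN_HEV over TU_EC 2.69 with equal weight per cell, 2.55 with thinned cells and 3.61 without the top cell. With the read filters alone 1 gene was 2-fold lower in LN_HEV than in TU_EC, and without the cells with lymphatic markers 1 was lower in TU_HEV than in TU_EC. C3 turned to -6.79 (TU_HEV over LN_HEV) and 3.32 (LN_HEV over TU_EC) with the read filters alone, and for TU_HEV over TU_EC to 5.32 without poolC and 0.44 without cells with lymphatic markers. Serping1 turned to -4.73 for TU_HEV over LN_HEV without pool3. The cause was not tested. Leaving out 1 plate at a time, the genes at least 2-fold lower in TU_HEV than in TU_EC numbered 1 to 3 and those lower in LN_HEV than in TU_EC 1 to 2, the median for TU_HEV over TU_EC was 1.16 to 2.28, and the log2 ratios ranged from -5.85 to 5.32 for C3 (TU_HEV over TU_EC) and from -4.73 to 7.79 for Serping1 (TU_HEV over LN_HEV). The settings that leave out the top cell, the other 2 pool1 libraries or cells with lymphatic markers were chosen after seeing the data. The median of all genes moved from 0.30 to 0.0077 for TU_HEV over LN_HEV and from 0.39 to -0.041 for TU_HEV over TU_EC with size factors. The values of C3, C4b and Serping1 rest on at most 13 cells of a group. No paired analysis was possible because the labels number no replicates across groups and no test was made.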
